A study of Mus musculus with 9 samples.

Results

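The interleukin-6 family was followed through 10 genes in whole mouse lung: the cytokines Il6, Osm, Lif and Il11, the receptor subunits Il6st, Il6ra, Osmr and Lifr, the transcription factor Stat3 and the feedback inhibitor Socs3. The genes were chosen by name, with earlier results of these data known. Every array probe that did not serve as a control and whose RefSeq transcript belongs to 1 of them was taken. This gave 18 probes among 56605, of which 17 were kept, and all 10 genes were among the 16843 genes tested. The samples were 9 lungs, 1 array each, in 3 groups of 3 described as biological replicates. Control mice were TRF1flox/flox littermates without cre, 11 months old after 9 months of tamoxifen. SPC-creTRF1flox/flox mice were 5 months old after 3 months of tamoxifen or 11 months old after 9 months. All mice of the 3 groups carried the floxed TRF1 alleles and were given tamoxifen each week, 250 mg per kg, starting when they were 8 weeks old. TRF1, encoded by Terf1, binds telomeric DNA as part of shelterin, and the SPC promoter drives cre in alveolar type 2 cells, the epithelial cells that make surfactant. The control group was thus matched to the later cre group in age and tamoxifen exposure, and was 6 months older than the earlier cre group.

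Cytokines of this family signal through gp130, the shared receptor subunit encoded by Il6st. Interleukin-6 binds its own receptor (Il6ra) before it engages gp130, whereas leukaemia inhibitory factor and oncostatin M use gp130 paired with the LIF receptor (Lifr) or the oncostatin M receptor (Osmr). The receptors activate JAK kinases, which phosphorylate STAT3, and STAT3 induces Socs3, which binds gp130 and JAK and shuts the signal down. In the lung, interleukin-6 is made by macrophages, fibroblasts and epithelium during injury and infection, and oncostatin M comes mainly from neutrophils and macrophages.

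Levels are given as the log2 processed signal of a probe minus the 75th percentile of its array, so a difference of 1 is a doubling. Different probes are not set against each other. The words rose, fell and called are kept for genes that passed limma's test with an adjusted p under 0.05 (Benjamini-Hochberg over the 16843 genes of a contrast), and errors of fold changes are standard errors from 3 arrays per group. The 75th percentile of processed intensity ran from 958 to 1430 over the arrays and no spot was saturated. The number of arrays limits the precision, and 3 against 3 arrays cannot give an exact permutation p below 0.1. The controls and replicate 1 of the 3-month cre group were on slide 1, with 62.7 to 64.9% of probes clear of background by the scanner software's flag, and the other 5 arrays were on slide 2, with 68.0 to 72.4%. The 9-month cre and control arrays therefore shared no slide, and slide and group could be separated only through the split 3-month group. Xist and Y-linked probes read the 3 controls as male, and each cre group as 1 male and 2 females. Terf1 was lower by 0.52 ± 0.19 on the log2 scale in 9-month cre lungs than in controls (limma adjusted p = 0.131), which was not a call. The position of the probe relative to the deleted part is not known here, so it does not check the labels. Sftpc, the surfactant gene that defines type 2 cells, was measured on every array and differed by 0.34 ± 0.16 (limma adjusted p = 0.222).

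Il6, Osm, Lif and Socs3 were all at their highest in the same lung. Picking a ligand and the feedback gene among them is no test of a link. The stretches upstream of Il6 and Socs3 are shown. Each is the 250 bases before an annotated start, 5′ to 3′ on the gene's own strand, from RefSeq on GRCm38.p6. The Il6 stretch is chr5:30012864-30013113 on the plus strand and the Socs3 stretch is chr11:117969367-117969616 on the minus strand, ahead of a start that lies inside the annotated span of the gene. Capitals mark, in order, the AP-1 letters TGANTCA, the C/EBP letters TTNNGCAAT and the kappaB consensus in Il6, and the STAT letters TTCNNNGAA in Socs3.
Il6: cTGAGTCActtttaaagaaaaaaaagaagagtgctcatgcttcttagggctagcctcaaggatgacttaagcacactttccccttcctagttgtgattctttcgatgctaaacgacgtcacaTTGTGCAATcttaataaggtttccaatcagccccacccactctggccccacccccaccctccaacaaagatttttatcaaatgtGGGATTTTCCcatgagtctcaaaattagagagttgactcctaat
Socs3: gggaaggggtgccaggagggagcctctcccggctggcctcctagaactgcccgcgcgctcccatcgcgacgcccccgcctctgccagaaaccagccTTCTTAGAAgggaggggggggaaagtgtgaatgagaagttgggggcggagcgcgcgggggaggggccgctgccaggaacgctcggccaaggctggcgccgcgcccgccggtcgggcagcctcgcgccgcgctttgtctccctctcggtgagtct

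In Il6 the AP-1 letters began 249 bases before the start, the C/EBP letters 128 bases before it and the kappaB consensus 44 bases before it. In Socs3 the STAT letters began 154 bases before the start. Both strands were searched over the 250 bases before each start, and the marked motifs did not overlap one another. Among 32841 mouse promoters searched over the same stretch, 6.75% held the AP-1 letters, 1.93% the C/EBP letters, 3.9% the kappaB consensus and 7.02% the STAT letters. Of the 9 members with a promoter entry, 3 held the AP-1 letters (Il6, Lif and Il11), and 1 each held the STAT letters (Socs3), the C/EBP letters (Il6) and the kappaB consensus (Il6). These are matches of letters and not sites shown to be bound.

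In lungs after 9 months of tamoxifen, 3 of the 10 members passed the test against age-matched controls. Osm and Socs3 rose, Lifr fell, and no other member was called. Over all genes 6.45% were called (3.65% higher and 2.81% lower). The members were chosen with earlier results of these data known, so setting their share beside that of all genes is not a test. At an unadjusted p under 0.05 stood 8 of the 10 members, against 27.3% of all genes. For 8 members no array of 1 group fell inside the range of the other, 6 of them higher in cre lungs and 2 lower, against 32.5% of all genes (17.5% higher and 15% lower). The median fold change of the 10 members was 0.71 on the log2 scale and that of all genes 0.02. In whole lung, a change in the number of cells of a type and a change in RNA per cell cannot be told apart.

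**Figure D1:**
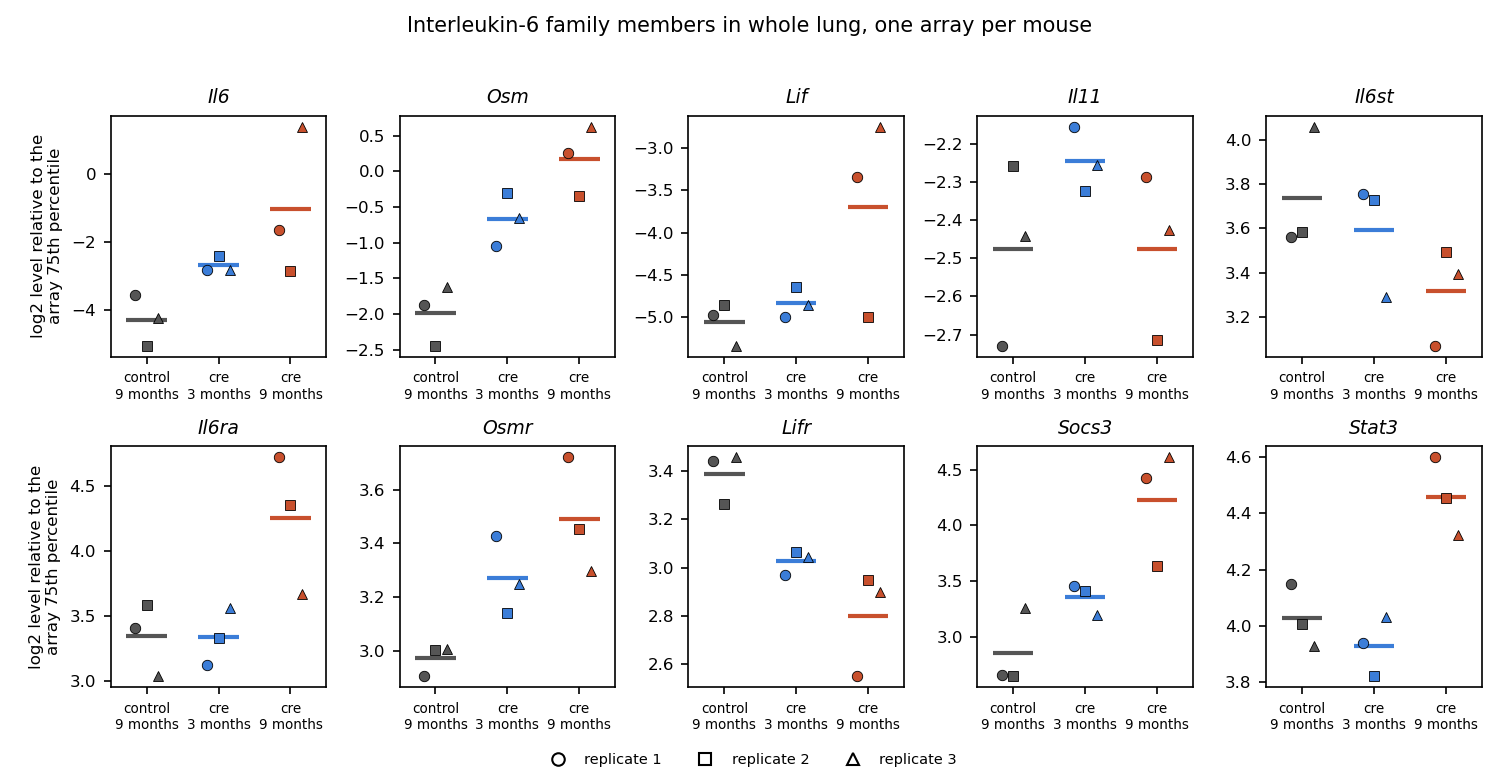
Level of each of the 10 members on every array, as log2 processed signal relative to the array 75th percentile; each gene has its own axis range. Points are single lungs, with the replicate shown by the marker shape, and bars are group means. Il6, Lif, Osm and Socs3 were highest in replicate 3 of the 9-month cre group, and Lifr was lowest in replicate 1 of that group.

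Il6 (chr5:30013114-30019975) encodes interleukin-6. Its levels were -3.57, -5.05 and -4.22 in the controls, -2.82, -2.41 and -2.82 in 3-month cre lungs and -1.65, -2.86 and 1.38 in 9-month cre lungs. Every cre lung was above every control, and 1 lung of the 9-month group stood far above the other two. In processed intensity, from which background is already subtracted, the Il6 signal was 33.3 to 89.6 in the controls and 304, 156 and 2822 in the 9-month cre lungs, and the probe was well above background on all 9 arrays. The SD of the 9-month cre group was 2.19, against 0.75 in the controls and 0.24 in the 3-month group. The fold change at 9 months was the highest of the members, 3.23 ± 0.93 on the log2 scale, and with that spread it was not called (limma adjusted p = 0.0729). Without replicate 3 of the 9-month group it was 2.02, and without replicate 2 it was 4.14 and called (limma adjusted p = 0.0272). A second Il6 probe, well above background on 7 of the 9 arrays, followed the same order of lungs within the 9-month group and gave 3.47 ± 0.92 (limma adjusted p = 0.073).

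Osm (chr11:4236785-4241026) encodes oncostatin M. Its levels were -1.88, -2.45 and -1.63 in the controls, -1.05, -0.30 and -0.65 in 3-month cre lungs and 0.26, -0.34 and 0.63 in 9-month cre lungs. All cre lungs lay above all controls, and the 2 cre groups overlapped. Osm rose 4.49-fold at 9 months, by 2.17 ± 0.31 on the log2 scale (limma adjusted p = 0.0147; higher in 3 of 3 lungs). The call held when any single array was left out, with values from 1.93 to 2.43. It was lost with slide as a block (1.59, limma adjusted p = 0.966) and with sex as a covariate (2.39, limma adjusted p = 0.0571). The other Osm probe was not well above background on any array and gave no value.

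Lif (chr11:4257568-4272514), which lies beside Osm, encodes leukaemia inhibitory factor. Its levels were -4.98, -4.86 and -5.34 in the controls, -5.00, -4.65 and -4.85 in 3-month cre lungs and -3.35, -5.00 and -2.75 in 9-month cre lungs. Replicates 1 and 3 of the 9-month group were above every other lung, whereas replicate 2 lay within the range of the controls. The fold change of 1.36 ± 0.49 was not called (limma adjusted p = 0.119), and became a call of 2.01 without replicate 2 (limma adjusted p = 0.00764). These signals were low although well above background on all 9 arrays, 28.4 to 38.0 in processed intensity in the controls and up to 162 in the 9-month cre lungs, and with normexp background correction the fold change was 0.65.

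Il11 (chr7:4772373-4782907) encodes interleukin-11, a family member known for its part in fibrosis. Its levels were -2.73, -2.26 and -2.44 in the controls, -2.16, -2.32 and -2.26 in 3-month cre lungs and -2.29, -2.72 and -2.43 in 9-month cre lungs. The 3 groups overlapped, and the difference between 9-month cre and control lungs was 0.0004 ± 0.16 (limma adjusted p = 0.999).

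Il6st (chr13:112464070-112506860), the gp130 subunit, had levels of 3.56, 3.59 and 4.06 in the controls, 3.76, 3.73 and 3.29 in 3-month cre lungs and 3.07, 3.50 and 3.39 in 9-month cre lungs. The 9-month cre lungs were below the controls without overlap, by 0.42 ± 0.20 on the log2 scale, which was not a call (limma adjusted p = 0.207). A second, dimmer Il6st probe differed by -0.07 ± 0.15 at 9 months, so the 2 probes did not give the same size of difference. On that probe the 3-month cre lungs were below the controls without overlap, at -0.56 ± 0.15 (limma adjusted p = 0.107). From 3 to 9 months the 2 probes went in opposite directions. The dimmer probe gave 0.49 ± 0.15 (limma adjusted p = 0.0802) and the main probe -0.27 ± 0.20.

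Il6ra (chr3:89869324-89913196), the interleukin-6 binding subunit, had levels of 3.41, 3.59 and 3.04 in the controls, 3.12, 3.33 and 3.56 in 3-month cre lungs and 4.73, 4.36 and 3.67 in 9-month cre lungs. The 9-month cre lungs were above all other lungs, with replicate 1 the highest and replicate 3 the lowest of them, the reverse of the order of these 2 lungs for Il6. The fold change was 0.91 ± 0.27 (limma adjusted p = 0.0783), and without replicate 3 it was 1.20 and called (limma adjusted p = 0.0278). A second Il6ra probe with a much dimmer signal gave 0.46 ± 0.19 (limma adjusted p = 0.187) and was highest in replicate 2.

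Osmr (chr15:6813568-6874968), the oncostatin M receptor subunit, had levels of 2.90, 3.00 and 3.01 in the controls, 3.43, 3.14 and 3.25 in 3-month cre lungs and 3.72, 3.45 and 3.30 in 9-month cre lungs. Every cre lung was above every control, with the 2 cre groups overlapping. The difference at 9 months was 0.52 ± 0.13 and missed the threshold (limma adjusted p = 0.0573). It passed with normexp background correction (0.51, limma adjusted p = 0.0421), with an intensity trend in the fit (limma adjusted p = 0.0368) and without replicate 3 of the 9-month group (0.62, limma adjusted p = 0.0412). A second Osmr probe gave 0.41 ± 0.20 at 9 months (limma adjusted p = 0.256) and -0.12 ± 0.20 at 3 months, and on it the cre and control lungs overlapped at both times.

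Lifr (chr15:7090610-7197489), the receptor subunit for leukaemia inhibitory factor, went the other way. Its levels were 3.44, 3.26 and 3.46 in the controls, 2.97, 3.06 and 3.04 in 3-month cre lungs and 2.55, 2.95 and 2.90 in 9-month cre lungs. No cre lung reached a control, and each 9-month cre lung was below each 3-month cre lung. Lifr fell 1.5-fold at 9 months, by 0.59 ± 0.13 on the log2 scale (limma adjusted p = 0.0374; lower in 3 of 3 lungs). The call was lost in 13 of 21 alternative settings, slide as a block (-0.67, limma adjusted p = 0.974) and sex as a covariate (-0.69, limma adjusted p = 0.0829) among them, while the value stayed between -0.69 and -0.42. Leaving out any control, any 3-month array or replicate 1 of the 9-month group ended it. The 2 dimmer Lifr probes gave -0.29 ± 0.24 and -0.38 ± 0.17, and neither was called. On both of them the 2 cre groups overlapped. The cre lungs overlapped the controls on the first of them and lay below the controls on the second.

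Socs3 (chr11:117966079-117970336), the inhibitor induced by STAT3, had levels of 2.66, 2.65 and 3.26 in the controls, 3.46, 3.41 and 3.20 in 3-month cre lungs and 4.43, 3.64 and 4.61 in 9-month cre lungs. The 9-month cre lungs were above all others, and within them replicate 2 was the lowest, as it was for Il6, Osm and Lif. Socs3 rose 2.58-fold at 9 months, by 1.37 ± 0.27 on the log2 scale (limma adjusted p = 0.0283; higher in 3 of 3 lungs). The call was lost in 9 of 21 alternative settings, among them slide as a block (1.53, limma adjusted p = 0.966) and sex as a covariate (1.5, limma adjusted p = 0.0851), and the value stayed between 1.17 and 1.66. It was also lost without control replicate 1 (1.27) or 2 (1.26), replicate 2 of the 3-month group or replicate 1 of the 9-month group (1.27).

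Stat3 (chr11:100886806-100939594), the transcription factor itself, had levels of 4.15, 4.01 and 3.93 in the controls, 3.94, 3.82 and 4.03 in 3-month cre lungs and 4.60, 4.46 and 4.32 in 9-month cre lungs. The controls and the 3-month cre lungs overlapped, and all 9-month cre lungs were above both. Against the controls the difference was 0.43 ± 0.12 (limma adjusted p = 0.0634), with 0.41 ± 0.23 from a second, dimmer probe. The arrays measured Stat3 mRNA and not the phosphorylated protein. In a fit over all 37647 kept probes, the source of every second-probe value above, 2 of the 17 member probes were called at 9 months (Osm, limma adjusted p = 0.018, and Socs3, limma adjusted p = 0.0372) against 3.49% of probes, and the Lifr probe was not (limma adjusted p = 0.0579).

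**Figure D2:**
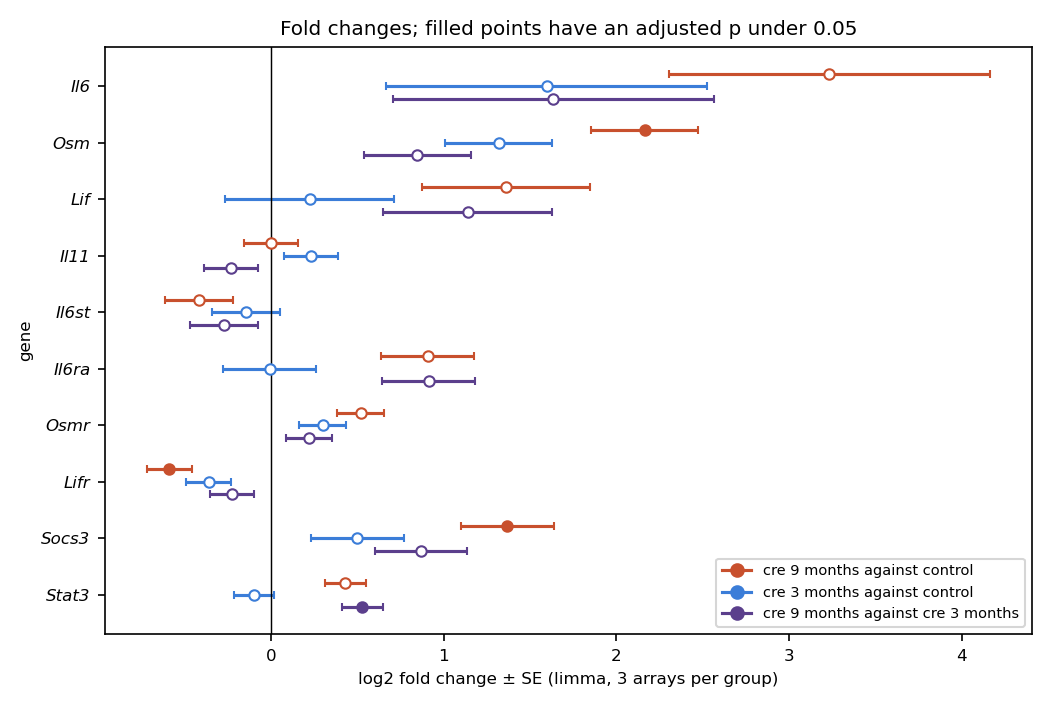
Fold changes of the 10 members on the log2 scale, with bars of 1 standard error, in the 3 contrasts. Filled points have a limma adjusted p under 0.05. Osm, Socs3 and Lifr are filled for 9-month cre against control and Stat3 for 9-month against 3-month cre.

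After 3 months of tamoxifen no member was called against the older controls, while 0.445% of all genes were (0.362% higher and 0.0831% lower). By unadjusted p under 0.05, 2 members passed (Osm and Lifr) against 18.7% of all genes. The arrays did not overlap for 4 members, against 31% of all genes: Il6, Osm and Osmr were higher and Lifr lower in the cre lungs (19.6% of all genes higher and 11.4% lower). Osm differed by 1.32 ± 0.31 (limma adjusted p = 0.108), Il6 by 1.60 ± 0.93 (limma adjusted p = 0.385), Osmr by 0.30 ± 0.13 (limma adjusted p = 0.275) and Lifr by -0.36 ± 0.13 (limma adjusted p = 0.199). Within slide 1, where 1 of the 3-month lungs sat with the 3 controls, these differences were 0.94 for Osm, 1.46 for Il6, 0.46 for Osmr and -0.42 for Lifr. Socs3 differed by 0.50 ± 0.27, with its highest control inside the range of the cre lungs, and Stat3 by -0.10 ± 0.12. The median over the 10 members was 0.23, beside 0.05 over all genes. Both cre groups were set against the same 3 controls, so the 2 comparisons share those arrays.

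Between the cre groups, Stat3 was the only member called among the 10, where 4.99% of all genes were, 1.79% higher and 3.2% lower. Stat3 rose from 3 to 9 months by 0.53 ± 0.12 on the log2 scale, 1.44-fold (limma adjusted p = 0.0449; higher in 3 of 3 lungs). The value was 0.53 within slide 2, which held 2 of the 3-month and all 9-month cre arrays (limma adjusted p = 0.216), and the call was lost in 16 of 22 alternative settings, over which the value ran from 0.46 to 0.60. Of the single arrays, leaving out only control replicate 3 or replicate 3 of the 9-month group kept the call. The second, dimmer Stat3 probe differed by 0.47 ± 0.23 (limma adjusted p = 0.202), and on it the 2 cre groups overlapped. By unadjusted p under 0.05, 5 members passed, against 28.7% of all genes. The arrays did not overlap for 4 members against 33.6% of all genes (14.6% higher and 19% lower). Of these, Il6ra was higher at 9 months by 0.91 ± 0.27 (limma adjusted p = 0.074), Socs3 by 0.87 ± 0.27 (limma adjusted p = 0.0814), and Lifr was lower, at -0.23 ± 0.13 (limma adjusted p = 0.284). The second, dimmer Il6ra probe differed by 0.09 ± 0.19 (limma adjusted p = 0.779), and on it the 2 cre groups overlapped. Il6 differed by 1.64 ± 0.93 (limma adjusted p = 0.281), and by 0.42 without replicate 3 of the 9-month group. The 2 cre groups differ in age by 6 months as well as in tamoxifen exposure.

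The wider pathway was read through 5 lists of genes, also chosen with earlier results of these data known. Their shares beside those of all genes are therefore not tests. Among STAT3 target and acute-phase genes, 12 of 24 tested rose and 1 fell at 9 months against the controls, where 3.65% of all genes rose and 2.81% fell. The list median was 0.83 beside 0.02 for all genes. Saa3, a serum amyloid A made outside the liver, had levels of 0.55, 0.11 and -1.58 in the controls and 4.19, 2.70 and 5.45 in 9-month cre lungs, a rise of 4.42 ± 0.72 (limma adjusted p = 0.0188). Like Il6, it was highest in replicate 3 and lowest in replicate 2 of that group. Fgg, the fibrinogen gamma chain, rose by 4.35 ± 0.79 (limma adjusted p = 0.0234), and unlike Il6 it was lowest in replicate 3, at -1.45 against 1.84 and 1.21. Saa1 rose by 2.75 ± 0.50 and Saa2 by 2.38 ± 0.42 (limma adjusted p = 0.0236 and 0.0223), and since these genes are near-identical their probes may not separate them.

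The other 8 that rose in this list were Lcn2, Mt2, Lrg1, Timp1, Bcl3, Pim1, Cebpb and Myc, and the 1 that fell was Reg3g, an antibacterial lectin of the airway epithelium, at -2.11 ± 0.44 (limma adjusted p = 0.0339). They include Bcl3 and Cebpb, which encode transcription regulators, Pim1, a kinase gene, and Lcn2, the iron-binding lipocalin made by neutrophils and epithelium. These names, other than the 4 with the largest changes, are given to complete the count.

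Among 12 genes that induce Il6 or act on the stability of its mRNA, 2 rose and none fell at 9 months, with a median of 0.71, beside 3.65% of all genes that rose. They were Arid5a, which stabilises Il6 mRNA, at 0.80 ± 0.16 (limma adjusted p = 0.0297), and Nfkbia, the NF-kappaB inhibitor, at 0.62 ± 0.14 (limma adjusted p = 0.0422). Of 16 JAK-STAT genes downstream of gp130, Ptpn6, the phosphatase SHP-1 of blood cells, rose by 0.82 ± 0.18 (limma adjusted p = 0.0404) and Gab1, an adaptor that links gp130 to kinase cascades, fell by 0.87 ± 0.17 (limma adjusted p = 0.0284), with a list median of 0.02. That is 2 of 16 called, beside 6.45% of all genes. None of the 10 tested genes for other ligands and receptors was called, and 1 had an unadjusted p under 0.05 in limma. The differences of Ebi3 and Cntfr were 0.94 ± 0.32 and 0.87 ± 0.44. None of 4 genes for receptor shedding was called either, at an adjusted or an unadjusted p under 0.05 in limma; Rhbdf1 differed by -0.24 ± 0.12 and Adam10 by 0.20 ± 0.14.

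**Figure D3:**
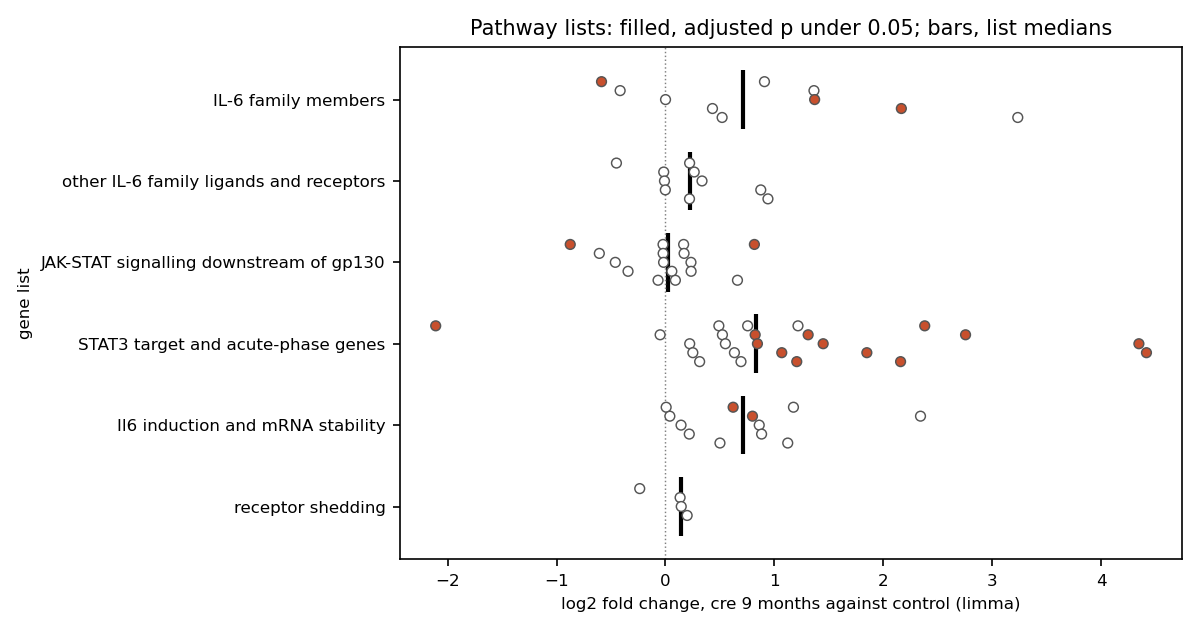
Fold change of every tested gene in the member list and the 5 pathway lists for 9-month cre against control, on the log2 scale. Filled points have a limma adjusted p under 0.05 and vertical bars are list medians. The STAT3 target and acute-phase list holds 13 of the filled points outside the members, 12 of them to the right of 0.

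At 3 months 1 gene of these lists was called, 1 of the 24 tested STAT3 target and acute-phase genes, beside 0.445% of all genes. This was Lcn2, with levels of 4.28, 3.41 and 4.28 in the controls and 6.01, 6.19 and 6.14 in the 3-month cre lungs. The rise was 2.12 ± 0.26 (limma adjusted p = 0.0258). That call was lost without control replicate 1 or 2, without replicate 2 or 3 of the 3-month group (1.83 to 2.27) and with slide as a block (2.02). Its level in the 9-month cre lungs, 6.39, 5.77 and 6.29, overlapped that at 3 months. Fgg, at 1.22, -0.35 and 0.95 in the 3-month cre lungs, differed from the controls by 4.42 ± 0.79, about as much as at 9 months, without overlap and without a call (limma adjusted p = 0.0664). For Il6 induction at 3 months, Il1a differed by 1.36 ± 0.36 (limma adjusted p = 0.125) and Zc3h12a, which encodes a nuclease that degrades Il6 mRNA, by 0.67 ± 0.22 (limma adjusted p = 0.179). From 3 to 9 months 6 genes of the lists were called, beside 4.99% of all genes (1.79% higher and 3.2% lower). In the STAT3 target and acute-phase list 3 of 24 tested genes rose and 1 fell. In the JAK-STAT list 1 of 16 rose and 1 fell. Mt2 rose by 1.75 ± 0.20, Bcl3 by 0.84 ± 0.16, Cebpb by 0.77 ± 0.13 and Ptpn6 by 0.89 ± 0.18, whereas Reg3g fell by 2.22 ± 0.44 and Gab1 by 0.98 ± 0.17. Their limma adjusted p-values ran from 0.0179 to 0.0401. Il1a was lower by 1.14 ± 0.36 and Il1b higher by 1.84 ± 0.59 in the later group, neither of them called.

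Leaving out 1 array changed how many pathway genes were called at 9 months against the controls, 17 with all arrays, and the calls over all genes, 1087 with all arrays, changed in the same direction in the cases given here. The count of pathway genes was 4 without control replicate 2 (158 over all genes), 4 without replicate 1 of the 9-month cre group (256 over all genes) and 23 without replicate 2 of that group (1638 over all genes). It was 8 without control replicate 1, control replicate 3 or replicate 2 of the 3-month group, with 351, 319 and 467 over all genes. The members called were 1 without control replicate 1, control replicate 2, replicate 2 of the 3-month group or replicate 1 of the 9-month group, 2 without control replicate 3 or replicate 1 or 3 of the 3-month group, and 5 without replicate 2 or 3 of the 9-month group.

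Markers of other cells were read beside these genes. At 9 months against the controls 3.65% of all genes rose, 2.81% fell and 27.3% had an unadjusted p under 0.05 in limma. The summed level of neutrophil markers, in multiples of the array 75th percentile, was 106 to 208 in the controls, 159 to 230 in 3-month cre lungs and 397, 392 and 123 in replicates 1, 2 and 3 of the 9-month group, and 3 of 13 tested rose at 9 months (Camp, Mpo and Ngp). Replicate 3, with the highest Il6, Lif, Osm and Socs3, was thus the lowest of its group in neutrophil markers, and inside the range of the controls. Monocyte and macrophage markers summed to 158 to 191, 202 to 237 and 256 to 282 in the 3 groups, and 7 of 16 rose at 9 months, Gpnmb, Trem2 and Cd68 among them. B cell markers summed to 16.8 to 22.1 in the controls and 9.46 to 14.6 in 9-month cre lungs, with 0 of 6 called by limma and 4 at an unadjusted p under 0.05. Fibroblast markers summed to 151 to 243 in the controls and 117 to 207 in 9-month cre lungs, where 3 of 11 fell (Fgf10, Meox2 and Npnt).

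Immediate early genes, which respond within minutes and can move with tissue handling, summed to 96.5 to 144 in the controls, 88.4 to 157 in 3-month cre lungs and 181, 142 and 249 in the 9-month replicates. Among the 9-month lungs their order was that of Il6, with replicate 3 highest and replicate 2 lowest, and Fosl1 rose at 9 months (1.56 ± 0.37, limma adjusted p = 0.0455). Heart muscle markers summed to 76.6 to 243 in the controls, 34.9 to 102 in 3-month cre lungs and 73.6 to 97.0 in 9-month cre lungs, where 1 of 10 fell (Myh7). Of the other markers, 1 of 9 for alveolar type 2 cells (Etv5) and 1 of 9 for endothelium (Kdr) fell at 9 months. None of 7 for alveolar type 1 cells or 8 for T cells was called by limma, with 2 of each list at an unadjusted p under 0.05. Over all genes 2.81% fell, 6.45% were called and 27.3% had an unadjusted p under 0.05 in limma. No defining marker with a probe in these lists was below background on all arrays. Ly6g of the neutrophil list, Trac of the T cell list and Rtkn2 of the alveolar type 1 list had no matched probe, and Fcnb of the neutrophil list was not tested. The part of these cells and signals in the members' values was not tested.

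**Figure D4:**
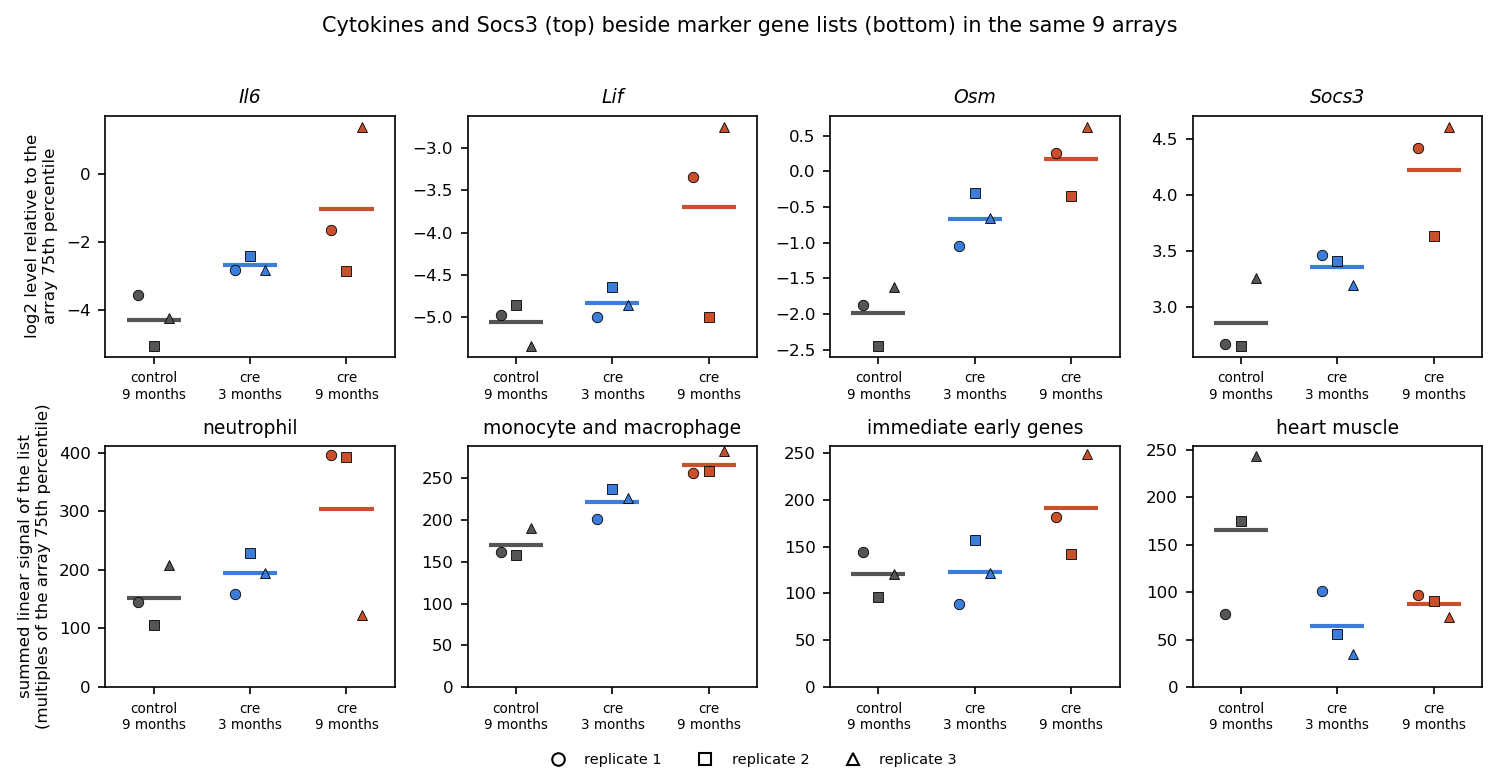
Top row, log2 level of Il6, Lif, Osm and Socs3 on each array; bottom row, summed linear signal of 4 marker lists in multiples of the array 75th percentile. Points are single lungs, marker shapes are replicates and bars are group means. In the 9-month cre group replicate 3 is the highest for the 4 members, for macrophage markers and for immediate early genes, and the lowest for neutrophil markers.

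Genes with the most similar pattern were found by the root mean square difference of log2 values centred on each gene's mean over the 9 arrays, among 15482 genes. For Il6, whose own values varied by 1.72 around their mean by that measure, they were Il17a (0.51), Slc7a11 (0.61) and Prnd (0.61). Il17a was not well above background on any control or 3-month array, nor Slc7a11 on any control, so their levels there are only bounds and their likeness to Il6 is uncertain. For Osm, with its own variation of 0.96, they were Lilrb4a (0.20), Lrp8 (0.24) and Msr1 (0.26), of which Lrp8 was not well above background on any control and on 1 of the 3-month arrays only. For Socs3 they were Slc7a8 (0.13), Slc16a3 (0.17) and Batf (0.17), beside its own variation of 0.64. For Lifr they were Rtn4rl1 (0.08), Septin4 (0.08) and Src (0.09), beside 0.27, and for Stat3 they were Atad3a (0.06), Stambpl1 (0.07) and Prickle3 (0.07), beside 0.25. The 9 arrays share the groups and slides described above, so these are descriptions of likeness with no test.

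**Figure D5:**
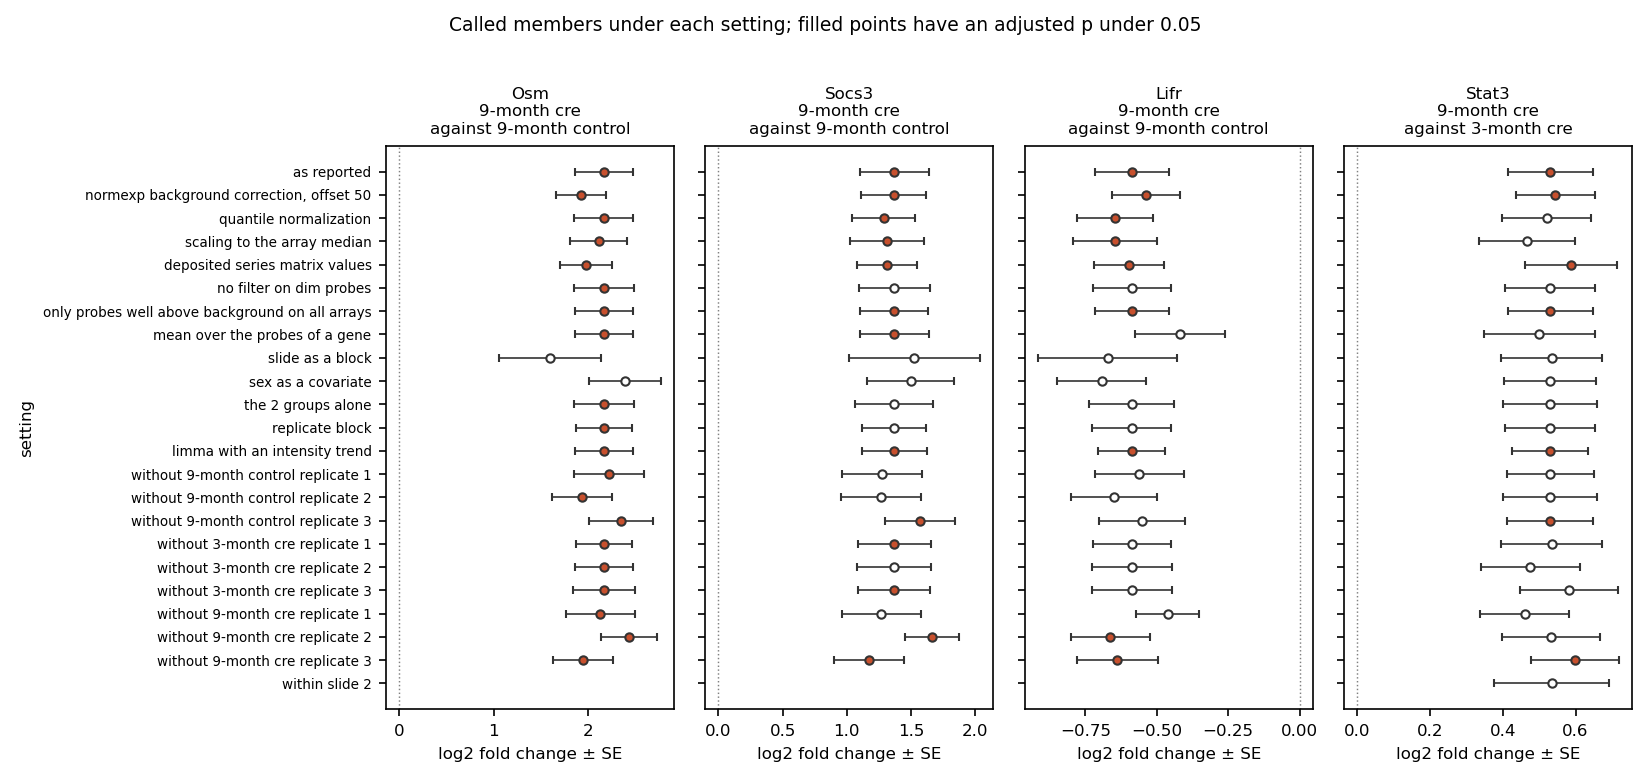
Fold change on the log2 scale with 1 standard error for the 4 called members under each setting, from the reported fit at the top through the alternatives and left-out arrays. Filled points have a limma adjusted p under 0.05. The side of 0 is the same in every setting shown, and with slide as a block no point is filled.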

How the data were processed

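Whole-lung RNA labelled with Cy3 was read on one-colour Agilent arrays. The deposited scanner files hold spot intensity from Agilent Feature Extraction 10.7.3.1, per the file headers, background-subtracted but not scaled between arrays. A second deposited set of intensity values, processed by a tool and steps not given in the sources used here, served as an alternative. Its medians were 163.3 to 164.1 and its highest value was 413467 on every array. On the log2 scale it correlated with the median spot signal at 0.9997 to 0.99997. With the processed signal the correlation was 0.966 to 0.980.

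Irregular spots were left out, spots of a probe averaged, and the log2 processed signal taken relative to the 75th percentile of the array. A probe was kept if at least 1 group had it flagged clear of background on all its arrays, and each gene took its probe with the highest mean. All 9 arrays were fitted in limma 3.58.1 (R 4.3.3, with data.table in version 1.17.8) with group means and 6 residual degrees of freedom, and the code was tested on simulated data. Gene positions and upstream sequences came from RefSeq on GRCm38.p6; Osm had no sequence entry.

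The members and lists were chosen with earlier results of these data known. All members are named. From each pathway list up to 4 called genes with the largest change, or 2 with none called, are named, and for Il6 and each called member the 3 genes of most similar pattern.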

Additional observations from a re-analysis of the deposited data

Results flagged for a closer look

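Stat3 differed between the cre groups. Its difference from the controls was 0.43 ± 0.12 on the log2 scale at 9 months and -0.10 ± 0.12 at 3 months, and the test of the difference itself gave 0.53 ± 0.12 (limma adjusted p = 0.0449). Both differences from the controls use the same control arrays. Between the cre groups the second, dimmer Stat3 probe gave 0.47 ± 0.23 (limma adjusted p = 0.202).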

How the results depend on the processing

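The 9-month and control arrays shared no slide, and with slide as a block the standard errors were 1.86 times larger in the median, all 1087 genes called at 9 months against control kept their sign, and limma called 0 genes in any contrast, 0 members and 0 pathway genes included (unadjusted p under 0.05 for 837 genes at 9 months, 1144 at 3 months and 3589 between cre groups). Osm was then 1.59, Lifr -0.67, Socs3 1.53 and Stat3 (9-month against 3-month cre) 0.53. Within slide 1, added after seeing the data, a single 3-month array stood against 3 controls and was assumed to vary like them; 4 genes and 0 pathway genes were called for 3-month cre against control, and within slide 2, added likewise, 0 genes, 0 members and 0 pathway genes for 9-month against 3-month cre (2975 at an unadjusted p under 0.05 in limma), with Stat3 at 0.53. With sex as a covariate 0 genes, 0 members and 0 pathway genes were called in either contrast with controls and 234 genes, 0 members and 2 pathway genes between cre groups (Osm 2.39, Lifr -0.69, Socs3 1.5, Stat3 0.53), with an unadjusted p under 0.05 in limma for 3710 genes at 9 months and 2191 at 3 months.

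The replicate numbers did not pair the samples: the correlation of same-numbered arrays' deviations was -0.24 to 0.05, with 0 of 9 pairs over 0.1, and 1 of 9 arrays correlated best with its own number. With the replicate block 317, 42 and 6 genes were called for 9-month cre against control, 3-month cre against control and 9-month against 3-month cre, with 1 member and 6 pathway genes in the first and 0 and 1 in the last, and Lifr (-0.59), Socs3 (1.37) and Stat3 (0.53) missed the threshold.

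In the same order of contrasts, with no filter on dim probes 489, 14 and 104 genes were called, with 1, 0 and 0 members and 8, 0 and 1 pathway genes, and the same 3 members, at -0.59, 1.37 and 0.53, missed the threshold, with 22911 genes tested. With the 2 groups alone the counts were 186, 389 and 335 genes and 4, 3 and 3 pathway genes, with 1 member in the first contrast and 0 in the last, and again -0.59, 1.37 and 0.53 not called. Averaging the probes of a gene gave Lifr -0.42 and Stat3 0.50, neither called, so that 0 members were called between cre groups, as with quantile normalization (Stat3 0.52) and with scaling to the array median (Stat3 0.47, 427 genes called). Normexp correction gave 5 members at 9 months and 49 genes at 3 months. An intensity trend gave 5 members at 9 months, 2 pathway genes at 3 months, and 1391 genes and 11 pathway genes between cre groups. Deposited values gave 43 genes at 3 months and 12 pathway genes between cre groups, and probes well above background on all arrays gave 45 genes at 3 months. The share of calls that were higher at 9 months against control was 56.5%, against 47.4% with quantile normalization and 46% with deposited values.

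Without 1 array in turn, 158 to 1638 genes, 1 to 5 members and 4 to 23 pathway genes were called at 9 months (Osm 1.93 to 2.43, Lifr -0.66 to -0.46, Socs3 1.17 to 1.66), 1 to 322 genes, 0 members and 0 to 3 pathway genes at 3 months, and 0 to 1224 genes, 0 to 2 members and 0 to 12 pathway genes between cre groups (Stat3 0.46 to 0.60).

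No called member changed sign. Sign changes were in values that were not called. At 9 months Il11 was -0.032 with quantile normalization, -0.058 with median scaling and -0.13 to 0.12 without 1 array, and Cntfr, 0.87 as reported, was -0.13 with the slide block. At 3 months Lif was -0.045 with normexp. Il6ra was 0.0051 with normexp, 0.18 with averaged probes, 0.23 with sex as a covariate and -0.16 to 0.12 without 1 array. Il6st was 0.020 with the slide block and within slide 1, and -0.23 to 0.018 without 1 array. Sos1, -0.28 as reported, was 0.11 with the slide block and within slide 1, and Cntfr, -0.35 as reported, was -0.68 to 0.16 without 1 array. Between cre groups Il6st was 0.11 with averaged probes. The averaged values are means over the probes of a gene, which differed by -0.27 and 0.49 for Il6st between cre groups. For Il6ra at 3 months the 2 probes gave -0.0058 and 0.37. The cause of the other sign changes was not tested. Il6 and Lif were well above background on all 9 arrays, and the number of arrays limited the precision.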
